A study of Mus musculus with 6 samples.

Results

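The troponins and tropomyosins are the proteins that make the thin filament of striated muscle respond to calcium, and 10 of their genes were followed here through 6 mRNA libraries of C2C12 cells. The genes were taken by symbol from a table of 20950 entries, and each had 1 row. They are the slow skeletal troponins Tnnc1, Tnni1 and Tnnt1, the fast skeletal troponins Tnnc2, Tnni2 and Tnnt3, the cardiac troponin Tnnt2, and the tropomyosins Tpm1, Tpm2 and Tpm3. All 10 were among the 10731 genes whose FPKM averaged 1 or more over the libraries, and these were compared throughout. FPKM counts the reads of a gene per length of transcript and per depth of sequencing, so that levels of different genes can be set side by side.

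C2C12 is an immortalised mouse myoblast line whose cells fuse into myotubes when serum is withdrawn. Growing cells were kept in 10% FBS (fetal bovine serum), and differentiating cells were moved to 2% HS (horse serum) or to 0.2% FBS, each without and with exosomes, the small vesicles that cells release into serum. The exosomes had been isolated from FBS and were given in the amount that 10% FBS contains. There were 2 libraries of 0.2% FBS + exosome (replicates 1 and 2), and 1 of each of the other groups, 10% FBS, 2% HS, 2% HS + exosome and 0.2% FBS. No agent other than serum and exosomes differed between the groups. Nothing in the labels says that replicates 1 and 2 came from separate cultures, so their spread may be technical. The labels number the 0.2% FBS library and replicate 1 as 2, and replicate 2 as 3. Replicate 2 thus has no control library of its own number, and what the numbers stand for is not given. The question of the design was whether exosomes of serum alter myogenic differentiation.

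The depth is not part of the table. It was estimated from the spacing of low FPKM values at between 33700000 and 39400000 reads per library, where 74.3% to 77.0% of the low values of 2442 genes lay within 0.1 of a whole read (20% if spread evenly). The FPKM values summed to between 461439 and 515215 per library. All 7 skeletal muscle markers were expressed. Of 8 cardiac markers 4 were, none above 10.6 FPKM, and Myl7, the atrial myosin light chain, was at 0 in all 6 libraries. Of 6 smooth muscle markers 4 were expressed, with the actin Acta2 between 1406 and 2297 FPKM and Smtn at up to 33.9 FPKM, while the smooth muscle myosin Myh11 did not exceed 0.0596 FPKM. The highest value of a blood marker was 0.0119 FPKM and of an adipocyte marker 0.336 FPKM. The growing cells already held muscle transcripts, with the embryonic myosin heavy chain Myh3 at 738 FPKM.

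In the thin filament, tropomyosin lies along actin and covers the sites to which myosin binds. Troponin C takes up calcium, troponin I holds the filament in the blocked state, and troponin T ties the complex to tropomyosin. Slow fibres, fast fibres and the heart use different genes for each troponin subunit, and developing skeletal muscle makes several of them together, including the cardiac troponin T. Tpm1, Tpm2 and Tpm3 each also give shorter tropomyosins of the cytoskeleton from other starts and exons, and the value of a gene adds all of its transcripts.

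On mouse build mm10 (GENCODE vM21) the 10 genes lie on 7 chromosomes, and several troponin genes are neighbours. Tnni1 (chr1:135779434-135810989, plus strand) ends 25.4 kb before Tnnt2 (chr1:135836354-135852260, plus strand), so that a slow troponin I gene stands beside the cardiac troponin T gene. Tnni2 (chr7:142441808-142444410, plus strand) and Tnnt3 (chr7:142498836-142516009, plus strand), both fast, are 54.4 kb apart. Tnnt1 (chr7:4504570-4516382, minus strand) lies 1.92 kb from Tnni3, the cardiac troponin I gene. Each of the others lies on a chromosome of its own among the 10, with Tnnc1 at chr14:31208312-31211729 (plus strand), Tnnc2 at chr2:164777161-164779967 (minus strand), Tpm1 at chr9:67022590-67049406 (minus strand), Tpm2 at chr4:43514711-43523765 (minus strand) and Tpm3 at chr3:90072649-90100902 (plus strand). On the opposite strand, Tnnc1 overlaps Nisch, Tnnc2 overlaps Ube2c and Tnnt3 overlaps Prr33. The troponin C genes are the simplest, with 1 annotated coding transcript of 6 exons each, which reads 161 codons in Tnnc1 and 160 in Tnnc2. Tnnt3 has the most annotated transcripts, 27, of which 23 are coding, and Tpm1 has 21.

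Since 9 of the 10 genes moved together across the libraries, the start regions are shown for the troponin C pair, for Tnni1 and Tnnt2, for Tpm1, and for Tpm3, which did not follow the others. Windows of 250 bases before to 50 bases after a start were found for 8 of the 10 genes in the RefSeq annotation of GRCm38.p6 (Tnni2 and Tnnt3 had none), 11 windows in all. They are printed 5′ to 3′ on the strand of the gene. Capitals mark CANNTG, the E-box that the MyoD family binds, and CATTCC or its reverse complement, the MCAT element of the TEAD factors. The windows are chr14:31208062-31208361 (plus strand) for Tnnc1, chr2:164779685-164779984 (minus strand) for Tnnc2, chr1:135799171-135799470 (plus strand) for Tnni1, chr1:135836084-135836383 (plus strand) for Tnnt2, chr9:67049164-67049463 (minus strand) for Tpm1, and chr3:90072401-90072700 (plus strand) and chr3:90079271-90079570 (plus strand) for 2 starts of Tpm3.
Tnnc1: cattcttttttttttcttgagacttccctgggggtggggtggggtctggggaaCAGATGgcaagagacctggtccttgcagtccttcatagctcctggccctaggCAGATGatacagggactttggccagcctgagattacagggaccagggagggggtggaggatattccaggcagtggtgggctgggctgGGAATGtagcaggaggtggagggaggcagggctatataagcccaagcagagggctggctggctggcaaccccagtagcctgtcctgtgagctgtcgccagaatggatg
Tnnc2: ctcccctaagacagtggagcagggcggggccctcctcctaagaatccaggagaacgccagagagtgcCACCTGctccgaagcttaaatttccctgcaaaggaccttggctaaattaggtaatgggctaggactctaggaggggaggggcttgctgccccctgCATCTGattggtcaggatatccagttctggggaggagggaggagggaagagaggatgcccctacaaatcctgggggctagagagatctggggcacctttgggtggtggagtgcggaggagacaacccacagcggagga
Tnni1: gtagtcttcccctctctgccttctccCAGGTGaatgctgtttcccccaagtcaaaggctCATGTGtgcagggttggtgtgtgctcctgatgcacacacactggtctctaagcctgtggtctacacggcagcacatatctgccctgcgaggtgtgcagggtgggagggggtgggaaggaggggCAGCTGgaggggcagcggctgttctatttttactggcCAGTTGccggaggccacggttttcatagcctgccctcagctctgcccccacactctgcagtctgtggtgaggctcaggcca
Tnnt2: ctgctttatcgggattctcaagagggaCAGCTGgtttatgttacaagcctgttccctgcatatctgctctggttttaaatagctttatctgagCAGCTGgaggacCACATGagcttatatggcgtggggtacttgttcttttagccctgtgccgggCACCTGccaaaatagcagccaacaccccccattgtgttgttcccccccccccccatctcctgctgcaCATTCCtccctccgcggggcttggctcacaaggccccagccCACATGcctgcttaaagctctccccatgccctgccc
Tpm1: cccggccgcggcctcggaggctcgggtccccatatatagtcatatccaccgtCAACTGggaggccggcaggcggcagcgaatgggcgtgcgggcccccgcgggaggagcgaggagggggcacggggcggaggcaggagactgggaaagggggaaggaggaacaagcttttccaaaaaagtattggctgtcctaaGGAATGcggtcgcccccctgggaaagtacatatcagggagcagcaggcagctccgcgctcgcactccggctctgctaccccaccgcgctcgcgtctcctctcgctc
Tpm3, first start: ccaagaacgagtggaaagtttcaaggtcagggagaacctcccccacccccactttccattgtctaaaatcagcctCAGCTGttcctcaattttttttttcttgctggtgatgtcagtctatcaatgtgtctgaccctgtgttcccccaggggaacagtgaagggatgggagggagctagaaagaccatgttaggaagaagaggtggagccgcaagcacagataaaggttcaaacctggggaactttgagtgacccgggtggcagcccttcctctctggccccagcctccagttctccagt
Tpm3, second start: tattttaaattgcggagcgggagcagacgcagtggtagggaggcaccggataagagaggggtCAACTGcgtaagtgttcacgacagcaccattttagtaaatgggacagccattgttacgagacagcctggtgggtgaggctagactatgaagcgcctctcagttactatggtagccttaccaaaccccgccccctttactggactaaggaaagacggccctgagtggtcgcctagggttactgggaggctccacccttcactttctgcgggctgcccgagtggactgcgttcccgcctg

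Both strands were searched, and CANNTG reads the same on each. It was present in the first window of 8 of 8 genes, and in 72.3% of all 32851 windows of this length. CAGCTG, the form of the E-box that muscle factors prefer and a case of CANNTG, was present in 4 of 8 (Tnni1, Tnnt2, Tpm2 and Tpm3) and in 16.3% of all windows. CATTCC was present in 3 of 8 (Tnnc1, Tnnt2 and Tpm1) and in 14.7% of all windows. The MEF2 site and the CArG box were in none of the 8, against 3.19% and 1.63% of all windows. Tpm3 held CAGCTG at its first start, as did 3 of the genes that moved together, and only another form of CANNTG at its second. Tnnt2, which moved with the others, likewise held only other forms of CANNTG in its second window. The second window of Tnni1, which overlaps its first, held CAGCTG. Neither of these second windows is printed.

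Cells in differentiation medium without exosomes were first compared with growing cells. In 0.2% FBS 5 of the 10 genes were higher than in 10% FBS by more than 1 on the scale of log2(FPKM + 1), the fold threshold of the study, against 1.79% of the 10731 genes. These were both troponins C, both troponins I and the fast troponin T Tnnt3. The same 5 and Tpm3 passed in 2% HS, where 1.79% of all genes did. The slow Tnnt1 and the cardiac Tnnt2 did not pass in either medium, but after scaling to the 75th percentile Tnnt1 passed in 2% HS (1.01, from 0.95), where 2.14% of all genes did. By any amount, 9 genes were higher in 0.2% FBS (38.6% of all genes) and 10 in 2% HS (40.1%). Both comparisons use the same library of 10% FBS, and each is 1 library against 1, with no replicate check.

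Exosomes in 0.2% FBS went with lower levels of all 10 genes in each exosome library (27.5% of all genes). Of these, 6 were lower by more than 1 in each library, against 1.61% of all genes. The 6 were the slow and the fast gene of each troponin subunit, Tnnc1, Tnnc2, Tnni1, Tnni2, Tnnt1 and Tnnt3. The cardiac Tnnt2 was at −0.999 in replicate 1, and Tpm1 and Tpm2 passed it in replicate 2 alone. In 2% HS no gene passed the threshold with exosomes in either direction (0.298% of all genes passed as lower and 0.354% as higher). There 6 of the 10 were lower by any amount, where 58.7% of all genes were. The exosome libraries of 0.2% FBS stood near or below growing cells. Against 10% FBS none of the 10 passed the threshold in both libraries (0.00932% of all genes as lower, 0.205% as higher), and 9 were lower in each by any amount (31.0%). That comparison and the one with 0.2% FBS share the exosome libraries.

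In bulk RNA, fewer cells of a type and less RNA per cell cannot be told apart, and this holds for every difference given here. The median of all 10731 genes was itself shifted by 0.14 with exosomes in 0.2% FBS and by −0.04 in 2% HS. The median of the 10 genes was −1.43 in 0.2% FBS (−1.24 in replicate 1 and −1.61 in replicate 2) and −0.11 in 2% HS. After the 75th percentile of the expressed genes was made equal in all libraries, the medians in 0.2% FBS were −1.58 for the 10 genes and 0.007 for all genes, and 8 of the 10 passed the threshold as lower in each exosome library (2.12% of all genes).

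**Figure D1:**
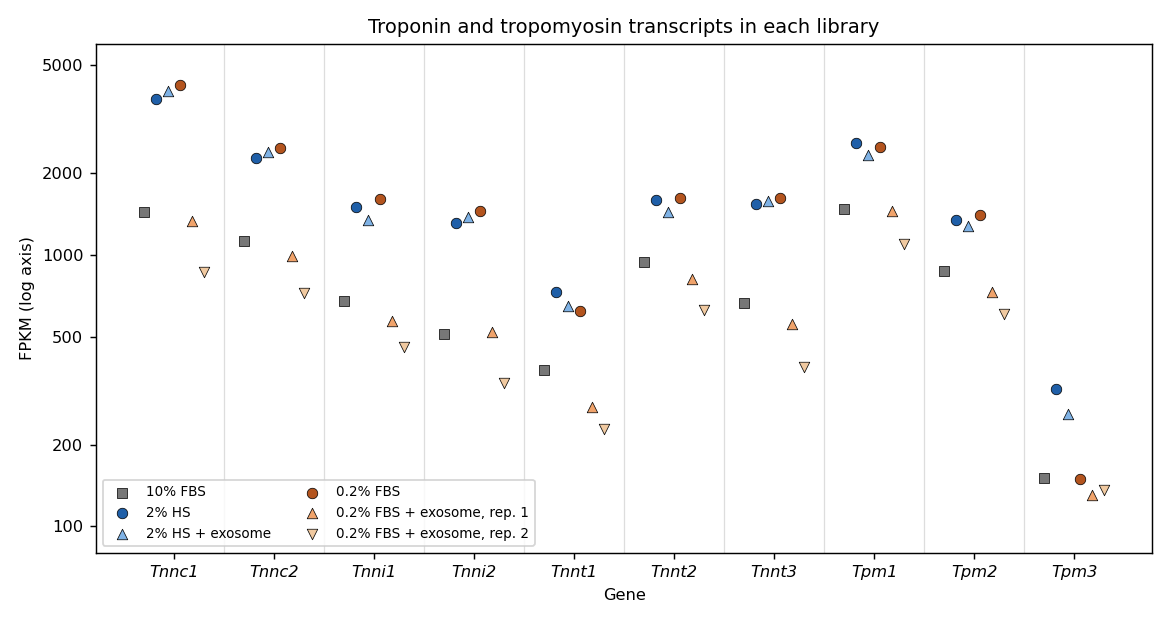
FPKM of each gene in each of the 6 libraries, on a log axis, with squares for growing cells, circles for differentiating cells and triangles for cells given exosomes. For 9 of the genes the libraries of 2% HS, 2% HS + exosome and 0.2% FBS lie above the other 3, while Tpm3 is at 322 and 261 FPKM in the 2% HS libraries and between 131 and 150.4 FPKM in the others. The share of all genes with the order of the 9 was not counted.

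Troponin C, the calcium sensor, had the highest troponin transcripts. Tnnc1, the form of slow muscle and heart, was at 1448 FPKM in 10% FBS, 3771 in 2% HS, 4039 in 2% HS + exosome, 4232 in 0.2% FBS, and 1337 and 867 in replicates 1 and 2 of 0.2% FBS + exosome. The 3 libraries of 2% HS, 2% HS + exosome and 0.2% FBS lay far above the other 3, and the lowest of them was 2.60 times the growing cells. Among all genes Tnnc1 ranked 4 by FPKM in 0.2% FBS and 50 and 102 with exosomes. Its log2 change with exosomes in 0.2% FBS was −1.66 and −2.29 (mean −1.97, SD 0.44, n = 2), the largest of the 10 genes, and it left 0.316 and 0.205 of the control level. In 2% HS the change was 0.10.

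Tnnc2, the fast troponin C, followed the same order at lower levels. It was at 1125 FPKM in 10% FBS, 2283 in 2% HS, 2390 in 2% HS + exosome, 2480 in 0.2% FBS, and 996 and 724 with exosomes in 0.2% FBS. Its change with exosomes in 0.2% FBS was −1.55 (SD 0.32, n = 2), and in 2% HS 0.07. The slow gene was lower relative to the fast gene in each exosome library, with a difference of their log2 changes of −0.35 and −0.51. In the annotation 35.0% of the 75-base stretches of Tnnc2 also lie in Ube2c, which overlaps it on the other strand. Ube2c, a ubiquitin-conjugating enzyme of mitosis, was between 10.3 and 25.2 FPKM, and its part in the values of Tnnc2 was not tested. The libraries were stranded, but the strand setting of the FPKM calculation was not given in the sources used here.

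Troponin I, the inhibitory subunit, showed the slow and the fast form at similar levels. Tnni1, the slow form, was at 677 FPKM in 10% FBS, 1499 in 2% HS, 1342 in 2% HS + exosome, 1606 in 0.2% FBS, and 573 and 458 with exosomes in 0.2% FBS. Its log2 change with exosomes was −1.65 in 0.2% FBS (SD 0.23, n = 2) and −0.16 in 2% HS. Again the exosome libraries of 0.2% FBS were the lowest of the 6, below growing cells. Tnni2, the fast form, was at 511 FPKM in 10% FBS, 1308 in 2% HS, 1380 in 2% HS + exosome, 1459 in 0.2% FBS, and 522 and 338 with exosomes in 0.2% FBS. Replicate 1 stood just above growing cells, the exception among the 10 genes. The change with exosomes was −1.79 in 0.2% FBS (SD 0.44, n = 2) and 0.08 in 2% HS. The slow and the fast gene did not differ in the same direction in both exosome libraries, with differences of their log2 changes of −0.004 and 0.30.

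Troponin T, the subunit that holds the complex on tropomyosin, was made from all 3 of its genes. Tnnt1, the slow form, was the lowest troponin, at 378 FPKM in 10% FBS, 730 in 2% HS, 648 in 2% HS + exosome, 625 in 0.2% FBS, and 277 and 228 with exosomes in 0.2% FBS. Unlike the other troponins it was higher in both 2% HS libraries than in 0.2% FBS, by a margin of 0.05 on the log2 scale. Its change with exosomes was −1.31 in 0.2% FBS (SD 0.20, n = 2) and −0.17 in 2% HS.

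The cardiac form Tnnt2 was at 942 FPKM in 10% FBS, 1599 in 2% HS, 1446 in 2% HS + exosome, 1631 in 0.2% FBS, and 815 and 628 with exosomes in 0.2% FBS. It had the highest troponin T level in each library but 2% HS + exosome, while no cardiac marker was above 10.6 FPKM. Its change with exosomes, −1.19 in 0.2% FBS (SD 0.27, n = 2) and −0.15 in 2% HS, was the smallest of the 7 troponins in 0.2% FBS. The fast form Tnnt3 was at 667 FPKM in 10% FBS, 1547 in 2% HS, 1576 in 2% HS + exosome, 1627 in 0.2% FBS, and 557 and 386 with exosomes in 0.2% FBS. Its changes were −1.81 in 0.2% FBS (SD 0.37, n = 2) and 0.03 in 2% HS. In each exosome library of 0.2% FBS, Tnnt3 was lower relative to the slow Tnnt1, with differences of 0.37 and 0.62, and to the cardiac Tnnt2, with differences of 0.55 and 0.70.

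The tropomyosins had smaller differences with exosomes in 0.2% FBS than any of the troponins. Tpm1, the alpha gene, was at 1474 FPKM in 10% FBS, 2594 in 2% HS, 2338 in 2% HS + exosome, 2497 in 0.2% FBS, and 1457 and 1102 with exosomes in 0.2% FBS. Replicate 1 was close to growing cells and replicate 2 below them. The change with exosomes was −0.98 in 0.2% FBS (SD 0.28, n = 2) and −0.15 in 2% HS. Tpm2, the beta gene, was at 871 FPKM in 10% FBS, 1352 in 2% HS, 1282 in 2% HS + exosome, 1399.9 in 0.2% FBS, and 729 and 607 with exosomes in 0.2% FBS. Its changes were −1.07 in 0.2% FBS (SD 0.19, n = 2) and −0.08 in 2% HS. The median of the 3 tropomyosins in 0.2% FBS was −0.98, beside −1.65 for the slow and −1.79 for the fast troponins.

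Tpm3, which encodes the tropomyosin of slow fibres and widely made cytoskeletal forms, did not follow the others. It was at 150.4 FPKM in 10% FBS, 322 in 2% HS, 261 in 2% HS + exosome, 149.7 in 0.2% FBS, and 131 and 137 with exosomes in 0.2% FBS. The 4 libraries with FBS lay together, and both libraries with HS lay above them. In 2% HS the level was 2.14 times that of growing cells, and in 0.2% FBS it was 0.995 times that of growing cells. The change with exosomes in 0.2% FBS was −0.19 and −0.13 (mean −0.16, SD 0.05, n = 2), rank 2176 when all genes are ordered from the lowest change up, where Tnnc1 ranked 23, Tnnt3 36 and Tnni2 40. In 2% HS it was −0.31, the lowest value of the 10 genes in that medium. The value in 0.2% FBS depended on the scaling, and was −0.31 after scaling to the 75th percentile (−0.27 in 2% HS) and −0.41 relative to Rpl13a (−0.46 in 2% HS).

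The lower 2% HS library of Tpm3 stood above the highest FBS library by 0.79 on the log2 scale, a ratio of 1.73. A gap of at least this size in this direction was found in 6 genes (0.0559% of the 10731), and a gap of any size in 840 (7.83%), among them Tnnt1. This comparison was chosen after the values of Tpm3 had been seen. The libraries with HS had 2% serum and those with FBS 0.2% or 10%, so that type and amount of serum cannot be told apart. Of the 75-base stretches of Tpm3, 19.1% also occur in Tpm3-rs7, a near-identical copy without a row of its own in the table. Reads from these stretches could not be placed by sequence. The stretches of all annotated Tpm3 transcripts were pooled, so the percentage does not measure how much of the Tpm3 level is uncertain. The other genes besides Tnnc2 and Tpm3 shared no such stretches.

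**Figure D2:**
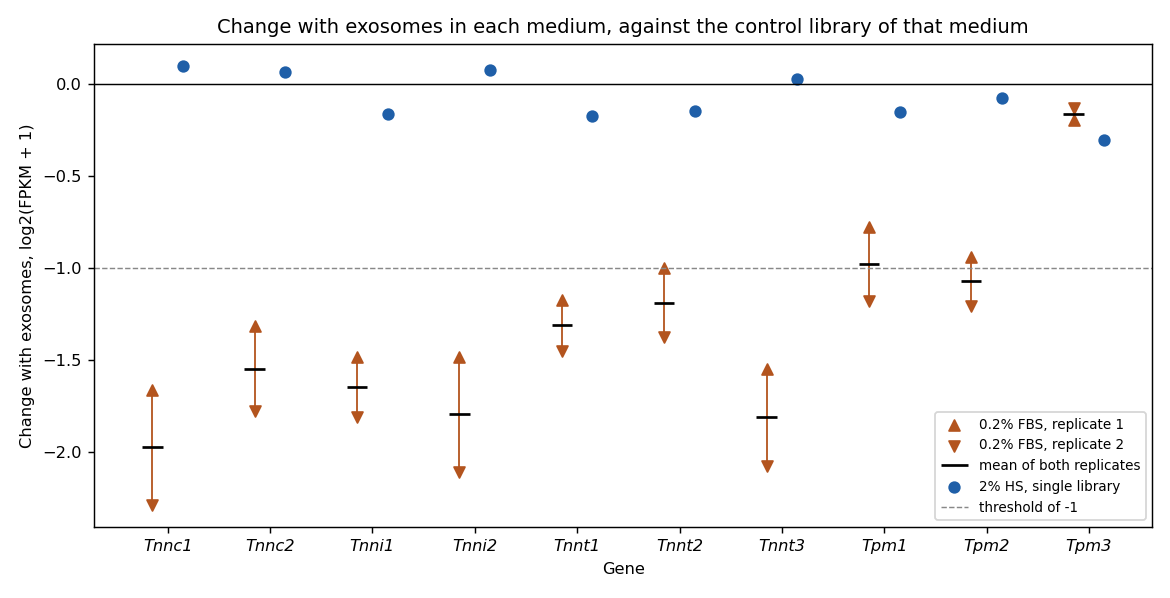
Change with exosomes in log2(FPKM + 1) for each gene, with replicates 1 and 2 of 0.2% FBS and the library of 2% HS as separate points and a dashed line at the fold threshold of −1. In 0.2% FBS 6 genes lie beyond −1 in both replicates and Tpm3 lies near 0, while in 2% HS all 10 lie between −0.31 and 0.10.

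Replicate 2 of 0.2% FBS + exosome was lower than replicate 1 for 9 of the 10 genes, all but Tpm3. How many of all genes were lower in replicate 2 was not counted. The median log2 change of all genes from 0.2% FBS was 0.09 in replicate 1 and 0.18 in replicate 2. By the mean of both, with its SD, the order with exosomes was Tpm1 (1280 ± 251 FPKM), Tnnc1 (1102 ± 332), Tnnc2 (860 ± 192), Tnnt2 (722 ± 133), Tpm2 (668 ± 86.1), Tnni1 (515 ± 81.4), Tnnt3 (471 ± 121), Tnni2 (430 ± 130), Tnnt1 (252 ± 34.4) and Tpm3 (134 ± 4.26). The order was the same in each of both libraries. The SDs include a difference between the libraries that 9 of the genes share, so that they overlap between most neighbours although the order did not change. In 0.2% FBS without exosomes the leading pair stood the other way, with Tnnc1 at 4232 and Tpm1 at 2497 FPKM.

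Slow and fast genes were compared as shares of the FPKM of a subunit. Tnnc1 held 63.0% of troponin C in 0.2% FBS and 57.3% and 54.5% with exosomes (55.9% ± 2.0, SD, n = 2), near the 56.3% of growing cells. In 2% HS its share was 62.3% without and 62.8% with exosomes. Tnni1 held between 49.3% and 57.5% of troponin I in the 6 libraries, and its 52.4% in 0.2% FBS lay within the range of the exosome libraries (54.9% ± 3.7). Adding the 3 slow and the 3 fast troponins gave a slow share between 51.3% and 53.9% in every library, a narrow range beside the differences in level.

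Within troponin T the cardiac and the fast share differed most between libraries. Tnnt2 held 42.0% in 0.2% FBS and 49.5% and 50.5% with exosomes (SD 0.77, n = 2). It held 47.4% in growing cells, and 41.3% and 39.4% in 2% HS without and with exosomes. The fast Tnnt3 moved against it, from 41.9% in 0.2% FBS to 33.8% and 31.1% with exosomes (32.4% ± 1.9), beside 33.6% in growing cells. Tnnt1 stayed between 16.1% and 19.0% of troponin T. With 2 libraries against 1 an exact permutation test has 3 arrangements and cannot give a one-sided p below 0.333, so these shares are given as values.

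Among the tropomyosins Tpm1 held between 59.1% and 62.9% and Tpm2 between 31.5% and 34.9% of the sum in all 6 libraries. The share of Tpm3 was 3.70% in 0.2% FBS, 5.64% and 7.41% with exosomes, 6.03% in growing cells, and 7.56% and 6.72% in 2% HS without and with exosomes. With exosomes in 0.2% FBS its share was higher although its level was not. Troponin and tropomyosin did not keep their ratio. The summed troponins were 3.38 times the summed tropomyosins in 0.2% FBS and 2.19 and 1.97 times with exosomes, beside 2.30 in growing cells, 2.98 in 2% HS and 3.30 in 2% HS + exosome. The 10 genes together made up 3.59% of all FPKM in 0.2% FBS, 1.60% and 1.06% with exosomes, 1.76% in growing cells, and 3.60% and 3.56% in 2% HS without and with exosomes.

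**Figure D3:**
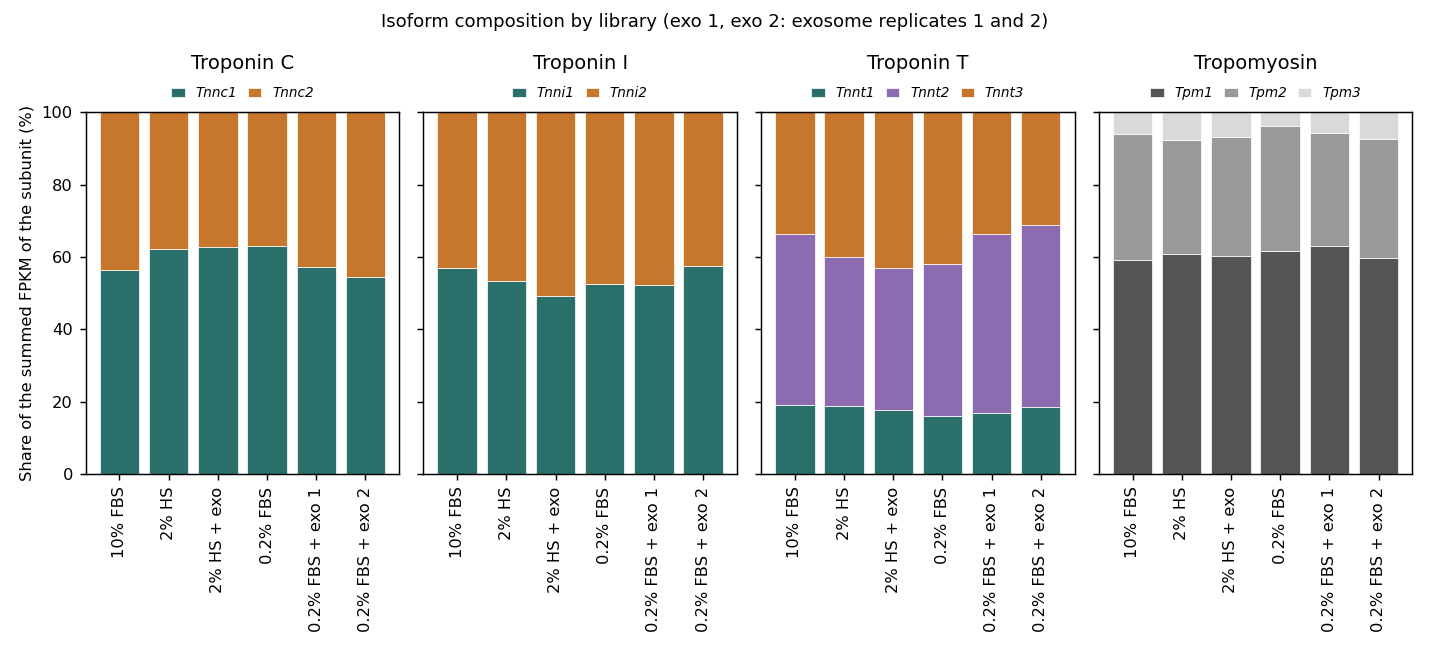
Share of each gene in the summed FPKM of its subunit, in percent, for troponin C, troponin I, troponin T and tropomyosin, with a bar per library. The cardiac Tnnt2 takes 39.4% to 42.0% of troponin T in 2% HS, 2% HS + exosome and 0.2% FBS and 47.4% to 50.5% in the other 3 libraries.

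Apart from Tpm3, genes with a larger difference between differentiating and growing cells tended to have a larger difference with exosomes. Across the genes without Tpm3, the log2 difference between 2% HS and 10% FBS and the exosome change in 0.2% FBS, which share no library, had a Pearson r of −0.95 (9 genes). With Tpm3 it was −0.53 (10 genes). Genes are not independent replicates, and Tpm3 was left out after its values had been seen, so no p is given. At one end Tnnc1 differed by 1.38 and −1.97. Of the 9 genes Tpm2 had the smallest difference from growing cells (0.63, with −1.07), and Tpm1 the smallest exosome change (0.81, with −0.98). Over the 6 libraries the 36 pairs of the 9 genes had a Pearson r of log2(FPKM + 1) between 0.9647 and 0.9995, and Tpm3 had between 0.688 and 0.785 with them. The points share their libraries and fall into high and low sets, and these coefficients are a description.

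**Figure D4:**
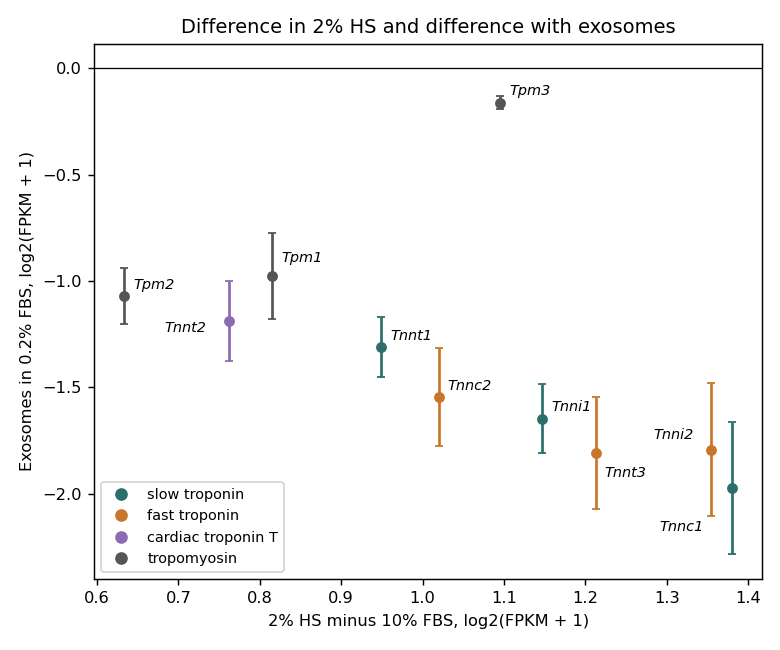
For each gene, the log2 difference of 2% HS from 10% FBS on the x axis and the mean exosome change in 0.2% FBS on the y axis, both in log2(FPKM + 1), with bars from replicate 1 to replicate 2. From Tpm2 at 0.63 to Tnnc1 at 1.38 the points run mostly downward to the right, and Tpm3 lies apart at 1.10 and −0.16.

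Models over the libraries were fitted with limma on log2(FPKM + 1) of all 10731 genes, with Benjamini-Hochberg adjustment. An exosome effect common to both media, with 3 exosome libraries against 2 controls and a term for the medium, was called for none of the 10 genes and none of all genes (0.0%). Its estimates lay between −0.22 for Tpm3 and −1.09 for Tnnc1, with an adjusted p of 0.705 for 9 genes and 0.718 for Tpm3. At an unadjusted p under 0.05 it gave Tnni1 and Tnnt1, where 709 of all genes passed and 3.39% did so as lower. The model assumes the same effect in both media, and the residual spread then holds the difference between them. Without the library of 2% HS, or without that of 2% HS + exosome, the effect is that of 0.2% FBS alone, and 4 of the 10 genes were called in each fit (4.34% of all genes as lower). Without the 0.2% FBS library the effect is that of 2% HS alone. The estimate for Tnnc1 was then 0.10, and those for Tnnc2, Tnni2 and Tnnt3 were also above 0. These rest on 1 library against 1 and are given as values only.

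The contrast within 0.2% FBS, from a limma fit of all 6 libraries with 1 mean per condition, called 4 of the 10 genes as lower, against 4.32% of all genes. Tnni2 changed by −1.79 (SE 0.41, adjusted p = 0.0285), Tnnt3 by −1.81 (SE 0.41, adjusted p = 0.0289), Tnnt1 by −1.31 (SE 0.30, adjusted p = 0.0302) and Tnni1 by −1.65 (SE 0.39, adjusted p = 0.0330), all in limma. Both troponins I and the slow and fast troponins T thus passed. The troponins C did not, at an adjusted p of 0.0568 for Tnnc1 and 0.0696 for Tnnc2, with changes of −1.97 (SE 0.57) and −1.55 (SE 0.48). After scaling to the 75th percentile Tnnc1 passed as well in limma (−2.12, adjusted p = 0.0457), and Tnnc2 did not (adjusted p = 0.0514). The limma values for the others were 0.0996 for Tnnt2, 0.112 for Tpm2, 0.234 for Tpm1 and 0.669 for Tpm3. The fit has 1 residual degree of freedom, which comes from replicates 1 and 2 of 0.2% FBS + exosome, and the unreplicated control is assumed to vary as they do. Without a filter on low values (16450 genes) it called none of the 10 and none of all genes, against 1344 of all genes with the filter. Scaling to the 75th percentile turned the split of these calls, from 464 lower of 1344 to 684 lower of 1164.

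The difference of the exosome effect between the media was tested in the same limma fit. Both groups of 2% HS are unreplicated too. They are also assumed to vary as replicates 1 and 2 of 0.2% FBS + exosome do, and the p-values rest on this. None of the 10 genes passed (0.867% of all genes did as lower), and 5 of the 10 did at an unadjusted p under 0.05 (5.58% of all genes as lower). The 5 were Tnnc1, Tnni1, Tnni2, Tnnt1 and Tnnt3, that is all 3 slow troponins and the fast troponins I and T. The estimate for Tnnc1 was −2.07 (SE 0.87, adjusted p = 0.245), for Tnni1 −1.49 (SE 0.60, adjusted p = 0.233), for Tnni2 −1.87 (SE 0.62, adjusted p = 0.162), for Tnnt1 −1.14 (SE 0.47, adjusted p = 0.236) and for Tnnt3 −1.84 (SE 0.63, adjusted p = 0.173). Tnnc2, at −1.61 (SE 0.74, adjusted p = 0.274), had an unadjusted p of 0.0591. Tnnc1, Tnnc2, Tnni2 and Tnnt3 were higher with exosomes in 2% HS and lower in each exosome library of 0.2% FBS, a pattern that 1293 of the 10731 genes had (12%). Relative to Rpl13a all 4 were lower in 2% HS as well, between −0.06 and −0.13. Rpl13a was itself higher by 0.16 with exosomes in 2% HS, and this reference moves all genes alike. Reads were estimated at the median length of the coding transcripts of a gene, with fragments taken as 200 bases. By this estimate at least 4315 reads lay behind any value of the 10 genes, a counting error of at most 1.52%. A shorter expressed transcript would mean fewer reads. The counting error does not include the spread between cultures.

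The 5 genes nearest in profile were taken for the slow and for the fast troponins. Over the 6 libraries and 5866 genes that averaged 10 FPKM or more, the mean slow troponin profile was closest to Trim72 (Pearson r = 0.999), which takes part in membrane repair, Mylpf (0.999), the fast regulatory myosin light chain, Lmod2 (0.997), which nucleates actin filaments, Smpx (0.997) and the kinase Wnk1 (0.997). The fast profile was closest to Trim72 (0.998), the formin Daam2 (0.998), Wnk1 (0.997), Myom2 (0.997), a protein of the sarcomeric M-band, and Mylpf (0.997). The Mylpf level was 8128 FPKM in 0.2% FBS, and 2740.5 and 2118 FPKM in its exosome libraries.

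A thin filament list of 22 other genes was examined. It was drawn widely and holds genes also used outside the sarcomere, such as Acta2, Tmod3 and Tpm4. Of the 22 genes 18 were expressed. Of these, 8 were lower by more than 1 in each exosome library of 0.2% FBS, and none was higher, against 1.61% and 0.895% of all genes. The median of the 18 was −0.999 in 0.2% FBS and 0.02 in 2% HS. The leiomodins Lmod2 and Lmod3, which start and lengthen thin filaments, differed by −2.06 and −1.79, the actin-binding Xirp1 by −1.76 and the cardiac actin Actc1 by −1.64. The Actc1 level was 3401 FPKM in 0.2% FBS, and 1394 and 855 FPKM in its exosome libraries. Against these, Tmod3, the tropomodulin of nonmuscle cells, was higher by 0.77, and so was Tpm4.

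Tpm4, the tropomyosin gene whose product is mostly cytoskeletal, had the opposite order. It was at 213 FPKM in 10% FBS, 133 in 2% HS, 107 in 2% HS + exosome, 129 in 0.2% FBS, and 228 and 209.8 with exosomes in 0.2% FBS. Growing cells and the exosome libraries of 0.2% FBS were high, and the other 3 libraries low, without overlap. How many of all genes had this order was not counted. The change of Tpm4 with exosomes was 0.76 in 0.2% FBS and −0.31 in 2% HS. Counted with the other 3 tropomyosins, it held 3.09% of the sum in 0.2% FBS, 8.95% and 10.2% with exosomes, and 7.87% in growing cells. Tnni3, the cardiac troponin I and neighbour of Tnnt1, was between 1.00 and 4.71 FPKM, at most 0.279% of troponin I.

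Of the 7 skeletal muscle markers, all were lower in each exosome library of 0.2% FBS (27.5% of all genes) and 3 passed the threshold in each (1.61%), with a list median of −1.13, and the median in 2% HS was −0.01, where the neonatal myosin Myh8 was higher with exosomes (13.2 and 28.8 FPKM). Myh3 differed by −1.58 in 0.2% FBS, Myog, the regulator of terminal differentiation, by −0.82 and Myod1, which marks myoblasts and myotubes alike, by −0.23. The Myod1 level was 83.7 FPKM in 10% FBS, 97.2 in 2% HS, 91.0 in 2% HS + exosome, 110.5 in 0.2% FBS, and 87.6 and 100.8 with exosomes in 0.2% FBS. The summed level of the 7 markers was 5223 FPKM in 0.2% FBS, 2597 and 2069 with exosomes, 2678 in growing cells, and 5144 and 4974 in 2% HS without and with exosomes. The share of differentiated cells behind these values was not tested.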

How the data were processed

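mRNA of C2C12 cells was measured in 6 stranded libraries with single-end reads of 75 bases. The authors used cutadapt 1.9.1 for trimming and TopHat2 2.1.0 for mapping to mm10, computed FPKM with Cufflinks and deposited these FPKM values for all libraries in 1 table. The labels name a miRNeasy kit for the RNA and the methods of the study an RNeasy kit. The groups came from the treatment given in the labels.

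Values were compared as log2(FPKM + 1), which makes changes of low genes look smaller, with the study's threshold of 1. limma 3.58.1 (R 4.3.3) was run with a mean-variance trend and Benjamini-Hochberg adjustment at 0.05. Alternatives were a pseudocount of 0.1 FPKM, values below 1 FPKM raised to 1, scaling to the 75th percentile, Rpl13a as reference, no filter on low values, and leaving out a library. The genes named are the 10 genes, Tnni3 and Tpm4, the 4 largest falls and 2 largest rises of the thin filament list, and the 5 genes nearest in profile to the slow and the fast troponins. Ube2c, Mylpf's levels and single markers were named after their values had been seen. The genes, lists and tests were chosen with earlier results of these data known. Depth was estimated from FPKM and not from counts. Single values therefore carry an estimated counting error and no interval.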

Additional observations from a re-analysis of the deposited data

Results flagged for a closer look

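For 4 genes the exosome change had opposite directions in the 2 media. Each was lower in both exosome libraries of 0.2% FBS and slightly higher in the exosome library of 2% HS, and the difference of both changes (0.2% FBS less 2% HS) was −2.07 for Tnnc1, −1.61 for Tnnc2, −1.87 for Tnni2 and −1.84 for Tnnt3 in log2(FPKM + 1). The rises in 2% HS, between 0.03 and 0.10, rest on 1 library against 1, and no adjusted p of the limma test of the difference was under 0.05 (0.162 to 0.274). With Rpl13a as reference all 4 genes were lower in 2% HS as well. Rpl13a was itself higher by 0.16 there, more than any of the 4 rises, so this turn follows from the reference gene.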

How the results depend on the processing

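The exosome changes of all 10 genes in 0.2% FBS were below 0 as reported. The other pseudocount, the scaling and the Rpl13a reference each moved them further down. That all 30 values under these settings were below 0 was therefore fixed in advance and is no check of direction. Rpl13a was itself higher by 0.26 with exosomes in 0.2% FBS, the mean of both libraries. Of the 30 values, 25 lay within 1 SD of the reported value. The counts past the fold threshold stayed within 1.5 times the reported ones. In 0.2% FBS with exosomes the count of 6 (1.61% of all genes) became 8 after scaling (2.12%), 8 with the mean of both libraries (2.25%), 9 without replicate 1 (2.84%) and 6 without replicate 2 (1.71%). In 2% HS against 10% FBS it went from 6 to 7 after scaling, with Tnnt1 added. In 2% HS the sign of Tnnc1, Tnnc2, Tnni2 and Tnnt3 turned to lower relative to Rpl13a, and no sign turned under the other 2 settings. The turn reflects the change of Rpl13a itself, 0.16 in 2% HS, which this reference takes from every gene alike. For a common exosome effect limma called between 0 and 4 of the 10 genes when a library was left out, 4 without 2% HS or without 2% HS + exosome (4.34% of all genes each), settings added after the data had been seen. Within 0.2% FBS limma called 4 genes (4.32% of all genes as lower), 5 after scaling (6.37%), with Tnnc1 added, and 0 with no filter on low values, where the count over all genes was 0 in place of 1344. The cause was not tested. With Tpm4 in the sum, Tpm1 made up 55.4% and Tpm2 29.1% of tropomyosin with exosomes in 0.2% FBS. No paired analysis was possible within a medium because its groups share fewer than 2 numbers in the labels. Across the media the shared numbers coincide with the medium, whose term the common fit holds. By the estimated reads, depth limits none of the 10 genes, and the single control library per medium limits every exosome comparison.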
